A study of Mus musculus with 15 samples.

Results

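Dlk1, Madcam1, Pdyn, Cdh22 and Swap70 are 5 genes, of 50600 listed in the deposited tables, that are not among the usual markers of the thymic medulla. They were chosen by their read counts, which were higher in epithelium of the thymic medulla than in that of the cortex. The difference between these 2 groups chose them and is therefore given as a description, with no test. All 5 have a row in the table of every library, by their Ensembl identifiers, and all 5 passed the filter on low counts. Madcam1 was at or under 0.446 CPM (gene reads scaled to a common depth) and Pdyn at or under 0.0666 CPM in every library from outside the thymus, so these 2 passed through the medullary libraries.

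The 15 libraries came from primary epithelium of male C57BL/6J mice at 8 weeks of age, for which the labels name no treatment and no mutation. Flow-sorted cells of the thymic cortex (cTEC), the thymic medulla (mTEC), the skin, the colon and the lung gave 3 libraries per group. The study set out to learn why epithelia differ in their MHC class I level. Cells of 5 mice were pooled for every library, and the labels do not say whether the pools of a group came from separate sorts, so p-values measure only the spread between these pools. RNA of cTEC, mTEC and skin went through one polyA library kit (KAPA RNA Stranded PolyA) and RNA of colon and lung through another (KAPA RNA HyperPrep PolyA), so the kit goes with the tissue, and their effects cannot be told apart, when skin or thymus is set against colon or lung. Levels are CPM scaled with TMM factors, a method that assumes most genes do not differ between libraries.

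The libraries held 12946533 to 41978665 reads in genes. Cortical markers such as Psmb11 and Prss16 summed to 4833 to 12570 CPM in cTEC and to 970 to 1157 CPM in mTEC. Lung markers summed to 13340 to 21890 CPM in lung, colon markers to 2178 to 4657 CPM in colon, and skin markers to 25140 to 51660 CPM in skin. Aire, the factor that switches on tissue-restricted genes in the medulla, stood at 242 to 613 CPM in mTEC and at 26.3 to 67.0 CPM in cTEC. The sum of all 9 medullary markers was 5866 to 7305 CPM in mTEC and 1935 to 3688 CPM in cTEC, but 7385 to 16550 CPM in skin, since Krt5, a keratin of basal epithelium, makes up most of it. The claudins Cldn3 and Cldn4 of that list were highest in colon. The 4 markers of the Aire stage summed to 599 to 1088 CPM in mTEC and to at most 151 CPM in any other library.

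The thymic medulla is where developing T cells meet self antigens. Its epithelium matures from cells that make the chemokine Ccl21a and basal keratins to cells that make Aire, and beyond these to keratinised and tuft-like cells. At the Aire stage single cells transcribe small, varying sets of genes that otherwise belong to other organs. Growth of the medulla depends on signals of the TNF receptor family, among them the lymphotoxin receptor, that act through the alternative NF-kB pathway.

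The 5 genes come from unlike families. Dlk1 encodes a membrane protein related to the Notch ligands but without their receptor-activating domain; it is imprinted and known as a brake on fat cell formation. Madcam1 encodes the addressin of gut venules, the ligand of integrin alpha4 beta7 on lymphocytes that home to the intestine. Pdyn encodes prodynorphin, the precursor of the dynorphin peptides that act on the kappa opioid receptor. Cdh22 encodes a cadherin, a calcium-dependent adhesion protein best known from brain. Swap70 encodes a protein that binds phosphoinositides and acts with the GTPase Rac, known from B cells, mast cells and dendritic cells.

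On the GRCm38 build, Dlk1 lies at chr12:109452823-109463336 on the plus strand, Madcam1 at chr10:79664559-79668537 on the plus strand and Swap70 at chr7:110221711-110283506 on the plus strand. Pdyn at chr2:129686565-129699844 and Cdh22 at chr2:165111507-165234853 lie on the minus strand of one chromosome. The read counts used are those of the sense strand. An annotated antisense gene lies inside Cdh22 (Gm14397, 1 sense read in the 15 libraries) and another inside Swap70 (Gm45515, 1090 sense reads against 43272 of Swap70). Reads on the opposite strand came to 0.75% to 1.44% of all reads over Dlk1, Madcam1, Pdyn and Cdh22 and to 3.08% over Swap70.

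The sequences just upstream of the start sites were set side by side for Madcam1 and Pdyn, the 2 genes whose levels were most alike over the 15 libraries, and for Swap70, whose highest level was in lung. They are the 250 bases before the RefSeq start (build GRCm38.p6), written 5′ to 3′ on the strand of the gene, at chr10:79664309-79664558 (plus), chr2:129699939-129700188 (minus, the first of 2 entries for Pdyn) and chr7:110221453-110221702 (plus). Capitals mark matches to the NF-kB-like motif GGGNNNNNCC on either strand and, in Swap70, also the GC box GGGCGG, which lies inside a motif match in both places.
Madcam1: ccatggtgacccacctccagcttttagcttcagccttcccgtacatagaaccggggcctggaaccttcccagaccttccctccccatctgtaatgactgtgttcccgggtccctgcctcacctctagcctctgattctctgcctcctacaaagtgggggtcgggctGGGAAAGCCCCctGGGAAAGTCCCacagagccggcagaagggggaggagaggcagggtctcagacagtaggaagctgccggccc
Pdyn: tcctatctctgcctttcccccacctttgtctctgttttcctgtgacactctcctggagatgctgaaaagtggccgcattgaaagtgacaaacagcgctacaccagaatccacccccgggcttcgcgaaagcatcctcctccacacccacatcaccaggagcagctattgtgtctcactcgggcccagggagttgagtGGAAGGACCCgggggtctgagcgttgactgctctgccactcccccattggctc
Swap70: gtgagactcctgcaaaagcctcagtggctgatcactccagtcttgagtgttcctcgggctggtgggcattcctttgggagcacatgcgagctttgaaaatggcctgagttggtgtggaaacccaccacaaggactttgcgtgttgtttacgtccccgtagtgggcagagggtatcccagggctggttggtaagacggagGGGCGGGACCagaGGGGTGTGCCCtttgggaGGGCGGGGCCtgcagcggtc

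Madcam1 held 4 overlapping matches in 2 adjacent blocks, which begin 84 and 71 bases before the start. Pdyn held 1 match, 53 bases before the start. Swap70 held 4 matches, with first bases 51, 38, 37 and 20 bases before the start, and the GC box at 51 and 20. The motif is loose: 45.8% of 32851 mouse promoter windows of this length held it, 32.7% held the GC box, and 12.4% held TATAAA, which no window of the 5 genes held. Cdh22 held 4 NF-kB-like matches and 1 GC box, with 30 CpG in its window, a number that 94.8% of windows did not exceed. Dlk1 and the second Pdyn window held none of these letters. A match is a description of the letters only.

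In mTEC, 4 of the 5 genes stood within a narrow range of levels and Swap70 stood apart. Per length, in the TPM that the authors deposited (transcripts scaled by length and depth), the mTEC mean was 72.0 ± 4.62 for Swap70, 19.2 ± 8.37 for Madcam1, 16.9 ± 8.16 for Dlk1, 11.03 ± 5.28 for Pdyn and 7.16 ± 2.37 for Cdh22 (SD, n = 3). Dlk1, Madcam1, Pdyn and Cdh22 were thus each at a level of 4.79 TPM or more in every mTEC library, and none of them reached a mean of 4 TPM in another group. The pooled libraries cannot tell fewer expressing cells from less RNA per cell.

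**Figure D1:**
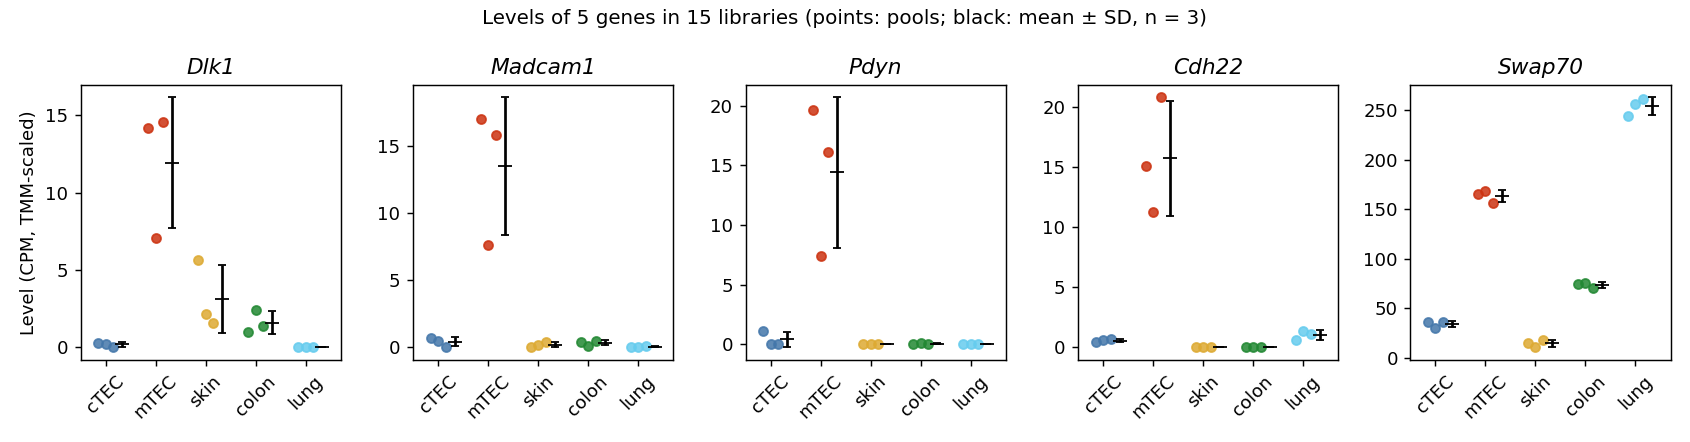
Level of each of the 5 genes (CPM, TMM-scaled, linear axis that differs between panels) in the 15 libraries; points are the pools of 5 mice and black bars the mean ± SD of a group (n = 3). Dlk1, Madcam1, Pdyn and Cdh22 are highest in the 3 mTEC libraries, with a second, lower level of Dlk1 in skin and colon and of Cdh22 in lung, whereas Swap70 is highest in lung.

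Dlk1, the Notch-ligand relative, stood at 14.2, 7.08 and 14.6 CPM in the 3 mTEC libraries. Skin gave 5.64, 2.12 and 1.58 CPM, and colon 0.984, 2.40 and 1.34 CPM. The cTEC libraries gave 0.285, 0.223 and 0 CPM, and lung 0.0307, 0 and 0 CPM. The mTEC libraries lay above all others, skin and colon overlapped, and so did cTEC and lung. The log2 difference of mTEC from cTEC was 6.06 ± 0.80 (SE), which ranked 74 of 19107 genes tested. Against skin and colon the mTEC mean was 3.88-fold and 7.53-fold higher, smaller folds than those of Madcam1, Pdyn and Cdh22 in these 2 comparisons. Without cTEC replicate 1 the log2 difference from cTEC was 6.68, and without skin replicate 1 that from skin moved from 1.95 to 2.70.

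Madcam1, the addressin, stood at 17.1, 7.59 and 15.9 CPM in mTEC. The cTEC libraries gave 0.666, 0.445 and 0 CPM, skin 0, 0.0883 and 0.364 CPM, and colon 0.358, 0.0666 and 0.446 CPM. In lung 1 read was found in 1 of 3 libraries. Every mTEC library lay above every other library, and cTEC, skin and colon overlapped. The log2 difference of mTEC from cTEC was 5.14 ± 0.89 (rank 159), and mTEC was 76.0-fold above skin and 47.2-fold above colon. Without skin replicate 3, which held most of the skin reads, the log2 difference from skin moved from 6.25 to 8.08. A block of the replicate number within the thymic libraries sets the mTEC term at the level of replicate 1. The values it gave, 6.87 against skin and 6.18 against colon (5.56 without it), therefore do not adjust these differences for pairing. Without cTEC replicate 1 the log2 difference from cTEC was 5.89.

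Madcam1 is a gene of venule endothelium, so markers of endothelial cells were set beside it. All 9 endothelial markers, Cdh5, Emcn and Pecam1 among them, had reads in every group. Their sum was 30.5 to 51.6 CPM in mTEC and 19.2 to 26.5 CPM in cTEC. It was 130 to 471 CPM in skin and 342 to 496 CPM in lung, the groups where Madcam1 had 7 reads and 1 read in all, and 16.4 to 57.4 CPM in colon. Within mTEC the sum was 51.6, 30.5 and 48.8 CPM in replicates 1, 2 and 3, lowest in the library where Madcam1 was lowest. The part of endothelial RNA in the mTEC level of Madcam1 was not tested.

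Pdyn, the dynorphin precursor, stood at 19.6, 7.42 and 16.1 CPM in mTEC. Skin had no read of it, lung had 1 read and colon had 4 reads, 1 or more in each library. The cTEC libraries gave 1.14, 0.0557 and 0 CPM. Of the 25 reads in cTEC nearly all lay in replicate 1, and the log2 difference of mTEC from cTEC, 5.10 ± 0.96 (rank 166), was 8.75 without that library and 5.89 with the thymic block. Against skin, taken at 3 reads over its 3 libraries, the mTEC level was at least 189-fold higher. Outside mTEC and cTEC replicate 1 no library exceeded 0.0666 CPM of Pdyn.

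Cdh22, the cadherin, stood at 15.1, 11.3 and 20.8 CPM in mTEC. No read of it was found in skin or in colon, in 3 libraries each. Lung gave 0.584, 1.36 and 1.08 CPM and cTEC 0.428, 0.557 and 0.671 CPM. The lung and cTEC libraries overlapped, and all mTEC libraries lay above both. The log2 difference of mTEC from cTEC was 4.82 ± 0.49 (rank 222) and that from lung 3.95 ± 0.46. With skin and colon each taken at 3 reads over their libraries, mTEC was at least 206.5-fold and at least 402-fold higher.

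Swap70 behaved differently. It stood at 165, 169 and 157 CPM in mTEC, at 36.3, 30.3 and 36.1 CPM in cTEC, at 14.8, 10.95 and 18.2 CPM in skin and at 75.1, 75.5 and 70.7 CPM in colon. Lung gave 244, 257 and 261 CPM, the highest of all. The order lung, mTEC, colon, cTEC, skin held without overlap between any neighbouring groups. Per length the order was the same, with 94.6 ± 5.68 TPM in lung, 24.4 ± 1.96 in colon, 14.7 ± 2.55 in cTEC and 4.42 ± 1.68 in skin (SD, n = 3).

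The Swap70 log2 difference of mTEC from cTEC was 2.26 ± 0.16, which ranked 1929. The log2 difference of mTEC from lung was -0.64 ± 0.15, beside a median of 0.14 over all genes in that comparison. With upper quartile scaling it was -0.42 and the median 0.36, and with the size factors of DESeq2 it was -0.50 and the median 0.27. Swap70 is thus medulla-biased within the thymus and not over the 5 epithelia.

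Since Swap70 is known from B cells and myeloid cells, their markers were set beside it. The 8 B-cell markers summed to 66.04, 21.1 and 59.5 CPM in the 3 mTEC libraries, where Swap70 differed little. All 8 had reads in mTEC, and Ms4a1 was at 0 in cTEC, where the sum was 27.2 to 88.4 CPM. The sum was 3.25 to 5.84 CPM in lung and 0.894 to 1.74 CPM in colon, where Blk was at 0. In skin Cd79b, Ms4a1, Cd22 and Blk were at 0 and the sum was 3.18 to 7.71 CPM. The 11 myeloid markers summed to 1772 to 3297 CPM in lung, where Swap70 was highest, against 103 to 208 CPM in mTEC, 47.6 to 68.5 CPM in cTEC, 30.2 to 70.4 CPM in skin and 7.36 to 10.7 CPM in colon. Lyz2, at 1186 to 2802 CPM, and Csf1r, at 476.5 to 590.1 CPM, made up most of the lung sum. Itgam, Adgre1, Mpeg1, Flt3 and Xcr1 were lower in every lung library than in every mTEC library. The remaining myeloid markers overlapped between lung and mTEC. Flt3 was at 0 in skin and colon and Xcr1 in skin. The part of myeloid RNA in the lung level of Swap70 was not tested.

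The RSEM tables give for each gene a length averaged over its transcripts by their estimated share. For Swap70 this length was 4012 to 4027 bases in skin, 3827 to 3915 in mTEC, 3689 to 3949 in cTEC, 3671 to 3744 in lung and 3470 to 3540 in colon. Swap70-201, with 12 exons and 4027 bases, is the only coding transcript among the 4 annotated, and the other 3 are shorter retained-intron transcripts. The colon libraries, with the smallest mean length, did not overlap with any other group. For Cdh22 the length was 3702 bases in all mTEC and lung libraries, that of the coding transcript Cdh22-201.

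Whether the 5 genes differed among the epithelia outside the thymus, which the choice of the genes did not use, was tested with the edgeR quasi-likelihood test over all genes, with Benjamini-Hochberg adjustment and a threshold of 0.05. These 3 comparisons share their groups with one another. Lung against colon lies within one library kit. Here Swap70 and Cdh22 were higher in lung and Dlk1 was lower, where 58.6% of all tested genes were called, 30.4% higher and 28.3% lower. Madcam1, also called lower, and Pdyn reached all 3 comparisons only through the medullary libraries, in which they were picked as high. Their results are a description and are not set against that share.

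Swap70 rose in lung over colon by a log2 difference of 1.78 ± 0.15 (SE; edgeR adjusted p = 1.41e-07). Cdh22, with 101 reads in lung and 0 in colon, was at least 25.3-fold higher in lung (edgeR adjusted p = 2.61e-05). Dlk1, with 124 reads in colon and 1 in lung, was lower in lung by a log2 difference of -6.66 ± 1.02 (edgeR adjusted p = 5.14e-05). The ratio of the pooled reads was 0.00607, with an exact 95% interval of 0.000152 to 0.0344 that covers counting error only. Without lung replicate 1, which held the 1 lung read, the log2 difference was -8.08. The libraries of the 2 groups did not overlap for these 3 genes, nor did they for Madcam1 or Pdyn. The lack of overlap thus does not set these 3 genes apart, and its share among all tested genes is not given here.

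Madcam1, which reached this test only through the mTEC libraries, had 20 reads in colon and 1 in lung. As a description, it was lower in lung by -4.18 ± 1.36 (edgeR adjusted p = 0.0158). This call ended when colon replicate 3, lung replicate 1 or lung replicate 2 was left out, with edgeR adjusted p of 0.0547, 0.0517 and 0.0552, and without lung replicate 3 the difference was -5.62. Pdyn, with 4 reads in colon and 1 in lung, did not pass (edgeR adjusted p = 0.395). At these counts a difference in Pdyn was not detectable.

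Skin against colon crosses the kits. Only Swap70 passed, and it was lower in skin by -2.33 ± 0.16 (edgeR adjusted p = 1.63e-08), where 58.2% of all tested genes were called, 27.4% higher and 30.8% lower. Only Swap70 and Dlk1 can be set against that share. Between them, only Swap70 had an unadjusted p under 0.05 with edgeR, and DESeq2 called only Swap70. Dlk1 differed by 0.96 ± 0.63 (edgeR adjusted p = 0.207), with overlapping libraries, and by 0.20 without skin replicate 1. Madcam1, with 7 and 20 reads (edgeR adjusted p = 0.614), and Pdyn, with 0 and 4 reads, are given as a description. Cdh22 had no read in either group, so no difference could be found.

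Skin against lung also crosses the kits. Dlk1 was higher in skin by 7.62 ± 1.01 (edgeR adjusted p = 1.31e-05), with 110 reads against 1. The value was 9.03 without lung replicate 1, 6.88 without skin replicate 1 and 8.26 with DESeq2. Cdh22, with 0 reads in skin, was at least 13.01-fold lower there (edgeR adjusted p = 1e-04), and Swap70 was lower by -4.11 ± 0.17 (edgeR adjusted p = 1.47e-10). Of all tested genes 60.4% were called, 26.7% higher and 33.7% lower. Madcam1, again tested only through the mTEC libraries and given as a description, had 7 reads in skin and 1 in lung. It did not pass (3.50 ± 1.56, edgeR adjusted p = 0.0654). It passed with DESeq2 (adjusted p = 0.0179), and with edgeR without cTEC replicate 3 (adjusted p = 0.0322) or skin replicate 1 (adjusted p = 0.0428). Without skin replicate 3 the difference was 1.69 (edgeR adjusted p = 0.577), and without lung replicate 3 it was 4.91.

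Dlk1 is also made by stromal cells, and markers of such cells varied among the skin libraries. In skin replicates 1, 2 and 3, where Dlk1 stood at 5.64, 2.12 and 1.58 CPM, the endothelial sum was 471, 195 and 130 CPM and the sum of 8 fibroblast markers 4003, 1271 and 7634 CPM. Skin replicate 1 had the fewest reads in genes of all libraries, 12946533. It also had the largest share of reads not assigned to a gene, 46.9%, and the lowest sense to opposite strand ratio, 8.43. The fibroblast sum was 995 to 1272 CPM in lung, where Dlk1 had 1 read, 183 to 421 CPM in colon, 258 to 510 CPM in cTEC and 134 to 156 CPM in mTEC, with reads of all 8 markers in each group. Their part in the skin level of Dlk1 was not tested.

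The 3 mTEC libraries did not carry the 4 low genes evenly. In replicate 2 Pdyn stood at 0.415 times the mean of the other 2 libraries, Madcam1 at 0.461, Dlk1 at 0.492 and Cdh22 at 0.629. Replicate 2 was the lowest library for all 4, and only for Cdh22 was replicate 1 also below the group mean. Swap70 stood at 1.05 in replicate 2. Among the 11729 genes with a mean of at least 5 CPM in mTEC, 1.42%, 2.56%, 3.32% and 7.11% had a ratio at or below that of Pdyn, Madcam1, Dlk1 and Cdh22.

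Over the 3 mTEC libraries the coefficient of variation was 43.7% for Pdyn, 38.2% for Madcam1, 35.3% for Dlk1 and 30.4% for Cdh22, against a median of 14.3% over the same 11729 genes. Counting error alone gives 5.53% to 6.34% at these read numbers. For Swap70 it was 3.83%, with 1.74% from counting, and 5.14% of genes varied as little. The 4 genes thus varied more between pools than the median gene, and Swap70 varied less.

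Aire moved the same way, with 613, 242 and 587 CPM in the 3 mTEC libraries and a replicate 2 ratio of 0.404. Fezf2, another regulator of tissue-restricted genes, stood at 277, 214 and 313 CPM, and Cd80, a costimulatory ligand of mature cells, at 47.3, 21.4 and 24.1 CPM. All 4 markers of the Aire stage had their lowest level in replicate 2, and their sum was 1088, 599 and 1056 CPM. Of the 4 markers of the earlier stage, Ccl21a, Krt5 and Krt14 were highest in replicate 2, with Ccl21a at 1361, 2064 and 1799 CPM, and Itgb4 was not, at 401, 397 and 523 CPM. Keratinised markers were lowest in replicate 2 as well, with Ivl at 5.22, 1.56 and 3.68 CPM, while the tuft-cell sum of 318, 325 and 435 CPM was highest in replicate 3.

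**Figure D2:**
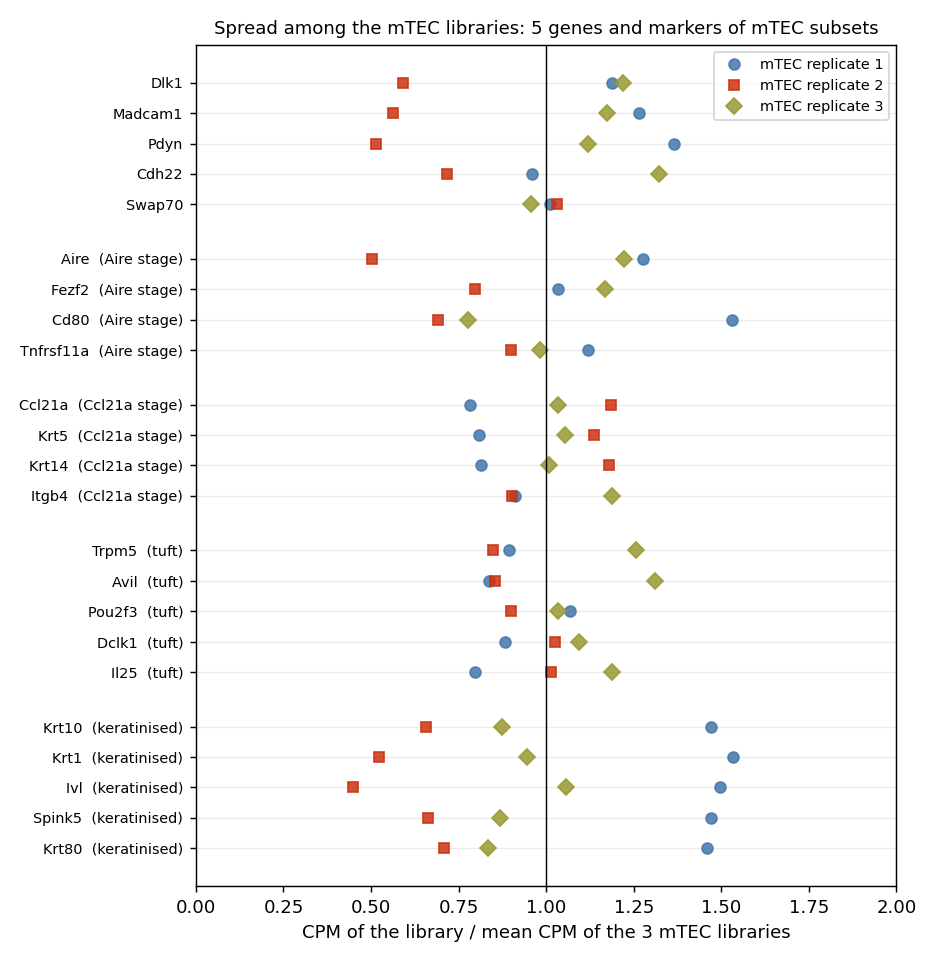
Level of each gene in the 3 mTEC libraries, as CPM divided by the mean CPM of those 3 libraries (linear axis, 1 = the mean); symbols are the replicates, each a pool of 5 mice. Pdyn, Madcam1, Dlk1 and Cdh22 lie lowest in replicate 2, as do Aire and the keratinised markers, whereas Swap70 stays near 1 and Ccl21a, Krt5 and Krt14 lie highest in replicate 2.

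The same split was seen in other medulla-biased genes. Replicate 2 was the lowest of the 3 mTEC libraries for 31.7% of the other tested genes at 5 CPM or more. It was the lowest for 56% of the 1721 that were called higher in mTEC than in cTEC, with a median ratio of 0.835. For the 53 of them that were higher by over 16-fold it was the lowest in 92.5%, with a median ratio of 0.482. The 4 genes, all past 16-fold, had ratios on both sides of that median.

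The B-cell sum of 21.1 CPM, the myeloid sum of 103 CPM, the T-cell sum of 32.3 CPM and the endothelial sum of 30.5 CPM were also lowest in mTEC replicate 2, against 59.5 to 66.04, 182 to 208, 36.2 to 55.0 and 48.8 to 51.6 CPM in the other 2 libraries. The sum of 4 general epithelial markers, Epcam among them, was highest there, at 5330 CPM against 4159 and 4189 CPM. Their part in the lower levels of the 4 genes in replicate 2 was not tested. Within cTEC, Aire was highest in replicate 3, at 67.0 CPM, where Dlk1, Madcam1 and Pdyn had no read and Cdh22 was at 0.671 CPM, its highest cTEC level.

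Genes with the most similar pattern were found by the root mean square difference of centred log2 CPM over the 15 libraries, among all genes tested. The measure includes the values by which the 5 genes were picked. Among themselves, Madcam1 and Pdyn were the closest, at 0.946, and Dlk1 and Cdh22 the farthest apart, at 3.32. Nearest to Pdyn were Prss29, a serine protease, at 0.380, then Calb2, Prss34 and Rln3, the precursor of the peptide relaxin-3. Nearest to Madcam1 were Cpne6 at 0.836, Thsd7b, Sost and Cga, the common alpha subunit of glycoprotein hormones.

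Nearest to Dlk1 was Fabp6, the bile acid binding protein of the ileum, at 0.759, with 13.9 CPM in mTEC, 3.31 in skin, 2.53 in colon, 0.656 in cTEC and 0.0102 in lung. Slit1, Rbp7 and Car3 followed it. Nearest to Cdh22 was Pgc, a pepsinogen, at 0.717, with 26.9 CPM in mTEC and 3.64 CPM in lung, then Marco, Slitrk4 and Calca, the calcitonin gene. Nearest to Swap70 was Dapk2, a death-associated kinase, at 0.374, with 274 CPM in lung, 108 in mTEC, 43.4 in colon, 24.4 in cTEC and 12.2 in skin. Pcnx2, Nr1h5 and Ankrd34b came next, each under 3 CPM in every group.

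Partners of Dlk1, Madcam1, Pdyn and Cdh22 were compared between mTEC and cTEC with the same test, in which 24.7% of all genes were called, 15.2% higher and 9.45% lower in mTEC, and the median log2 difference was 0.07. Around Dlk1, the imprinted Dlk1-Dio3 domain and its neighbours gave no call among 6 genes tested of 7, with a median log2 difference of 1.11. At an unadjusted p under 0.05 there were 2, and DESeq2 called 1, Rian, higher. Rtl1, the gene too low to test, had 45 reads in mTEC (0.75 ± 0.79 CPM, SD) and 2 in cTEC. It had 1 read in lung and 0 in skin and colon. Meg3, the maternally expressed RNA beside Dlk1, stood at 3.80 CPM in mTEC and 2.38 CPM in cTEC (0.68 ± 0.47, edgeR adjusted p = 0.318). Its highest level, 70.3 CPM, was in skin.

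Of 13 Notch pathway genes, 2 were higher and 4 lower in mTEC, with a median of 0.06. Dlk2, the close relative of Dlk1, fell from 71.5 CPM in cTEC to 7.21 CPM in mTEC (-3.31 ± 0.58, edgeR adjusted p = 0.00138), opposite to Dlk1. Dll3, a ligand relative that acts inside the cell, was higher, with 869 reads in mTEC against 69 in cTEC (3.53 ± 0.54, edgeR adjusted p = 0.000537). The receptor Notch2 was higher by 0.58 ± 0.11 (edgeR adjusted p = 0.00263). The activating ligands Dll1 and Jag2 were lower by -1.41 ± 0.27 and -1.62 ± 0.34 (edgeR adjusted p = 0.00235 and 0.00403), and so was the target gene Hey1 (-0.87 ± 0.20, edgeR adjusted p = 0.00607). The other target genes listed did not follow Hey1. Heyl stood at 72.0 CPM in mTEC and 17.7 CPM in cTEC and did not pass (2.03 ± 0.71, edgeR adjusted p = 0.0506). It passed with DESeq2 and with the replicate number as a block over all groups (edgeR adjusted p = 0.0497), and stayed not passed in 15 of 24 alternative settings. Hes1 did not pass (-0.18 ± 0.19, edgeR adjusted p = 0.536).

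Beside Madcam1, none of 7 lymphocyte homing ligands tested of 10 was called, by edgeR or DESeq2, and none had an unadjusted p under 0.05. Vcam1, another ligand of alpha4 integrins, was at 488 CPM in cTEC and 400 CPM in mTEC. Of 9 homing receptors, Itgb7, the beta chain of the Madcam1 receptor, was lower in mTEC (-2.25 ± 0.56, edgeR adjusted p = 0.0108), and Itga4, its alpha chain, did not pass (-0.55 ± 0.71, edgeR adjusted p = 0.62). The T-cell marker sum stood at 91.3 to 125 CPM in cTEC and 32.3 to 55.0 CPM in mTEC, and its part in the Itgb7 difference was not tested.

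Ccr7, the receptor of Ccl21a, was higher in mTEC (1.23 ± 0.38, edgeR adjusted p = 0.032). This call was lost with the replicate number as a block over all groups (adjusted p = 0.0502) but not with the block within the thymic libraries only (adjusted p = 0.0344). It was also lost without any one of the cTEC libraries, mTEC replicate 1 or mTEC replicate 3 (adjusted p up to 0.175). The myeloid marker sum was 103 to 208 CPM in mTEC and 47.6 to 68.5 CPM in cTEC. The T-cell sum was lower in mTEC, and the B-cell sums of the 2 groups overlapped. The part of these cells in the Ccr7 difference was not tested. The 2 median log2 differences were 0.31 for the ligands and -0.55 for the receptors. Of 8 genes of the lymphotoxin receptor and alternative NF-kB pathway, Nfkb2 and Relb, its 2 transcription factor subunits, were higher by 1.06 ± 0.15 and 0.83 ± 0.21 (edgeR adjusted p = 0.000291 and 0.0122). The receptor Ltbr was lower by -0.68 ± 0.13 (edgeR adjusted p = 0.00225), and the median over the list was 0.60.

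Among 5 tested opioid genes of 7, Pomc, the precursor of beta-endorphin, was higher in mTEC at 13.2 CPM against 2.02 CPM (2.70 ± 0.52, edgeR adjusted p = 0.00245), and so was the delta receptor gene Oprd1 (4.16 ± 0.93, edgeR adjusted p = 0.00596). Penk, the enkephalin precursor, was lower at 9.21 CPM against 47.8 CPM (-2.38 ± 0.43, edgeR adjusted p = 0.00172). Pnoc, the nociceptin precursor, had 84 reads in mTEC and 6 in cTEC and did not pass (3.61 ± 1.32, edgeR adjusted p = 0.0597). It passed without the filter or without any one of the skin libraries (lowest adjusted p = 0.0133). Oprk1, the dynorphin receptor, had 4 reads in mTEC and 3 in cTEC and was too low to test.

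Of 11 genes of prohormone processing and secretory granules, 5 were higher and 1 lower, with a median log2 difference of 2.35. Vgf, a granule peptide precursor, was higher by 3.30 ± 0.46 and Scg5, the chaperone of the convertase Pcsk2, by 2.35 ± 0.34 (edgeR adjusted p = 0.00026 and 0.000562). Pam, Scg2 and Chgb were the other 3. Cpe, the carboxypeptidase that trims peptide ends, was lower by -2.38 ± 0.35 (edgeR adjusted p = 0.000379). The convertases Pcsk1 and Pcsk2, which cut prodynorphin, stood at 1.41 and 2.16 CPM in mTEC and did not pass (edgeR adjusted p = 0.107 and 0.148). Without cTEC replicate 1, skin replicate 1 or skin replicate 3 Pcsk1 passed, and without skin replicate 3 Pcsk2 passed (lowest adjusted p = 0.0249 and 0.0328).

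**Figure D3:**
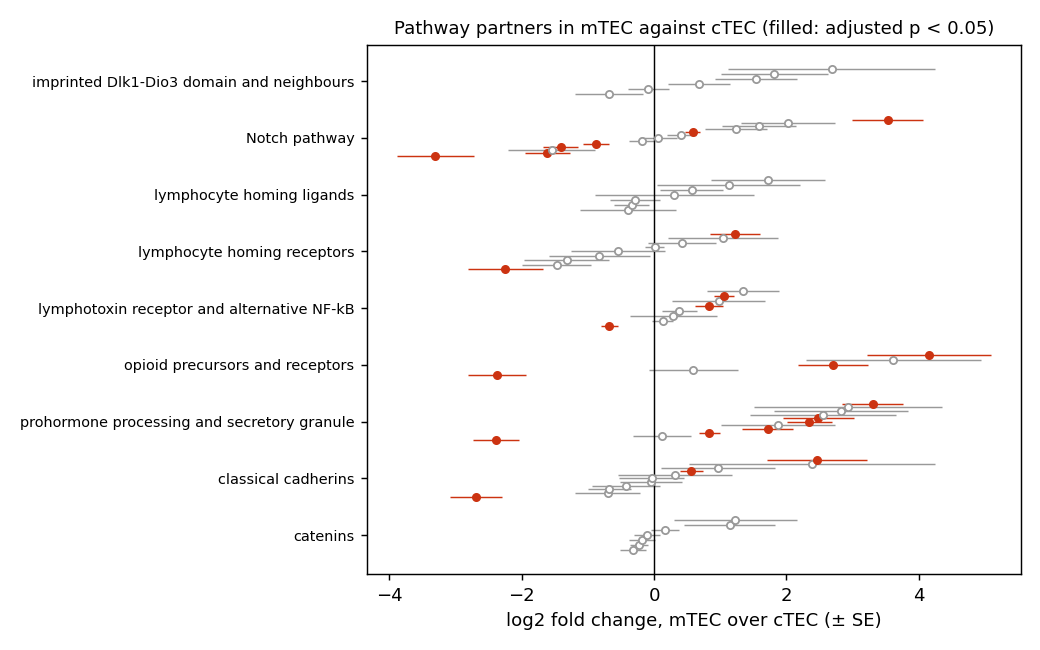
Log2 fold change of mTEC over cTEC, with its SE, for each tested gene of 9 lists of partners of Dlk1, Madcam1, Pdyn and Cdh22; filled points passed an adjusted p of 0.05 and open points did not. Most lists hold points on both sides of 0; the opioid and secretory granule lists have the highest medians, 2.70 and 2.35, and the Dlk1-Dio3 domain, the homing ligands and the catenins have no filled point.

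Among 11 classical cadherins tested of 17, 2 were higher and 1 lower, with a median of -0.04. Cdh4 was lower in mTEC at 30.9 CPM against 199 CPM (-2.69 ± 0.40, edgeR adjusted p = 0.000391), opposite to Cdh22. Cdh1, the epithelial cadherin, was higher by 0.56 ± 0.17 (edgeR adjusted p = 0.0286), a call that was lost without any one of the cTEC libraries, mTEC replicate 1 or mTEC replicate 2 (adjusted p up to 0.0994). Cdh15 was higher by 2.46 ± 0.75 (edgeR adjusted p = 0.0312), at 1.79 CPM in mTEC. That call was lost with the replicate number as a block over all groups (adjusted p = 0.0701) or within the thymic libraries (adjusted p = 0.068), without the filter, with unstranded counts, and without any one of the cTEC libraries, mTEC replicate 1, mTEC replicate 3 or lung replicate 2 (adjusted p up to 0.151). None of 7 catenins, the partners of cadherins inside the cell, was called by edgeR or DESeq2 or had an unadjusted p under 0.05, and Ctnnb1 stood at 461 CPM in mTEC and 497 CPM in cTEC.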

How the data were processed

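Cells of 15 libraries were sequenced after polyA selection. Per the submitters' processing notes, bcl2fastq 2.20, STAR 2.5.1b and RSEM 1.2.28 were used with GRCm38; the annotation release and the counting options were not given in the sources used here. Per gene, the authors deposited counts in 1 unstranded and 2 stranded columns, and RSEM tables with expected counts, TPM and a length per gene. The sense counts were used, which exceeded the opposite strand 8.43-fold to 19.3-fold in total. Reads not assigned to a gene for any reason, 24.2% to 46.9% of a library, were left out. Expected counts were rounded and served as an alternative, and the deposited TPM as levels per length.

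Symbols and coordinates came from GENCODE M21, which holds 50376 of the 50600 identifiers, and promoter sequences from RefSeq, where all 5 genes matched. Genes were filtered with filterByExpr by group (19107 left), scaled with TMM and fitted with edgeR 4.0.16 (R 4.3.3) in 1 quasi-likelihood model with 5 group terms over all libraries; its steps were checked on simulated data. The common biological coefficient of variation was 28.1%, and replicates differed beyond sampling noise (chi-square per degree of freedom 20.5 to 191). Adjusted p-values are Benjamini-Hochberg over all genes tested. A standard error is the log2 fold change divided by the square root of F, log2 CPM for likeness used a prior count of 2, and a group without reads was set to 3 reads over its libraries for bounds. Intervals and bounds cover counting error only, since amplified reads are not independent molecules.

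The labels number the replicates 1 to 3 in each group. Deviations of same-numbered cTEC and mTEC libraries from their group means correlated over genes at 0.29, 0.278 and 0.156, so pairing by these numbers was tried as a block. Unless a block is named, the printed estimates and p-values do not use this pairing. The blocked value stands beside a result where it changes the call.

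The 5 genes, the partner lists, the markers and the tests were chosen with earlier results of these data known. Named genes are the 5, up to 2 genes per direction of each partner list with the smallest adjusted p, a set of direct partners whatever their result, and the 4 genes nearest in pattern to each of the 5. A list of partners of Swap70 is not reported here. Pam, Scg2, Chgb, Rian, Rtl1, Pnoc, Vcam1, Jag2, Hey1, Heyl and Hes1 were named after their values were seen. Alternatives were DESeq2 1.42.0, its size factors, upper quartile scaling, no filter, 1 CPM in 3 libraries, expected counts, unstranded counts, replicate blocks and leaving out each library.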

Additional observations from a re-analysis of the deposited data

How the results depend on the processing

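The 5 genes kept the direction of every called difference under all 24 alternative settings, and the calls that changed, all of Madcam1, are given with that gene. Genes called between mTEC and cTEC numbered 4714, and 2408 to 6554 when 1 library was left out (2408 without mTEC replicate 1, 3075 without cTEC replicate 2). With 1 library left out, 10022 to 12194 genes were called between lung and colon (11204 with all), 9997 to 11719 between skin and colon (11121) and 10515 to 12028 between skin and lung (11538).

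With the replicate number as a block over all groups, 4433 genes were called between mTEC and cTEC, 10989 between lung and colon, 10856 between skin and colon and 11265 between skin and lung. A block within the thymic libraries only, added after seeing the data, gave 4565, 11096, 10982 and 11437. Same-numbered libraries of skin, colon and lung correlated at -0.058 to 0.046, which gave no sign of pairing there. The labels do not say whether these samples were paired. Among the 5 genes neither block changed a call. Among the named partners the first changed those of Ccr7, Cdh15 and Heyl and the second that of Cdh15.

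Without the filter 72.2% of the called genes were higher in mTEC than in cTEC, against 61.7% with it. The median log2 difference over all genes moved from 0.18 to 0.40 with upper quartile scaling between mTEC and colon. Depth limits Madcam1 and Pdyn outside the thymus, where they rest on at most 20 reads a group.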
